A study of Homo sapiens with 8 samples.

Results

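Most of the 10 genes described here control, or are switched on by, tumour necrosis factor (TNF) signalling. They include the inhibitor of apoptosis genes BIRC2, BIRC3 and XIAP, and the TNF receptor-associated factors TRAF1, TRAF2 and TRAF3. The others are the ubiquitin-editing enzyme TNFAIP3 (A20), its partner TNIP1, TNFAIP2, and TICAM1, an adaptor of Toll-like receptors. All 10 were taken from the deposited table by gene symbol, from a list drawn up with earlier results of these data known. Their counts beside the background are thus a description. Each symbol stood on 1 row of the 20323, and all 10 were among the 12648 genes that passed the filter on low counts. RNA sequencing measured messenger RNA in 8 libraries of H2452, an established human line that the labels call a pleural biphasic mesothelioma, with the genotype given as wild type. In 4 libraries the cells had received deoxypodophyllotoxin (DPT), a microtubule poison of the lignan class made by plants, at 20 nM for 48 h. In the other 4 they had received only the solvent, DMSO, for 48 h. The title of the series names mitosis and necroptosis, a regulated form of lytic cell death, and the comparison asks which messages differ after DPT.

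When TNF binds its receptor TNFR1, the adaptor TRADD and the kinase RIPK1 gather on it, and TRAF2 brings in the ubiquitin ligases cIAP1 (BIRC2) and cIAP2 (BIRC3). Ubiquitin chains on RIPK1 and its neighbours then hold the kinases that switch on NF-kB and survival genes. When these chains are lacking or are removed, RIPK1 can instead start apoptosis through caspase-8 or necroptosis through RIPK3 and MLKL. A20 and several deubiquitinases limit the signal, and A20, cIAP2 and TRAF1 are well known NF-kB target genes, so that the pathway feeds back on itself.

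After DPT, 5 of the 10 messages rose and 1 fell. TRAF1 was 3.39-fold and TNFAIP3 2.89-fold higher in DPT than in DMSO, BIRC3 was 1.98-fold, BIRC2 1.41-fold and TICAM1 1.38-fold higher, and TNFAIP2 fell to 0.684 of its DMSO level. XIAP, TRAF2, TRAF3 and TNIP1 did not pass the test with all 8 libraries. Calls rest on the quasi-likelihood test in edgeR, with a Benjamini-Hochberg adjusted p under 0.05 over all tested genes. By that rule 5.68% of all tested genes were higher and 5.29% lower in DPT, 11.0% in all. TRAF1 and TNFAIP3 also rose by at least 2-fold in that fit, as 1.13% of all tested genes did. The median log2 fold change (DPT over DMSO) of the 10 genes was 0.32, against -0.002 over all tested genes. In the same 6 genes no DPT library overlapped a DMSO library in counts scaled to library size, 5 higher and 1 lower. By that measure 9.50% and 8.73% of all tested genes had groups that did not overlap upward and downward, 18.2% in all. In the deposited FPKM values the groups of BIRC2 and TNFAIP2 did overlap.

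Library totals were 16087550 to 16524401 counts in DPT and 14964432 to 17205391 counts in DMSO, and the difference of the group means was within the spread (p = 0.314 by an exact permutation test, two-sided, 4 libraries each). A pair of libraries, DPT replicate 2 and DMSO replicate 3, were unlike the other 6, with scores of 29.3 and 40.8 on the first principal component against -25.6 to -1.02. Interferon-stimulated genes were low in the pair, with a mean of 6.04 and 6.56 log2 CPM (counts scaled to library size) in DPT replicate 2 and DMSO replicate 3, against 8.40 to 8.56 in the others. The mean of 17 NF-kB feedback and target genes was also low there, at 4.81 and 4.31 log2 CPM, against 5.72 to 5.84 in the other DPT and 5.28 to 5.43 in the other DMSO libraries. Results are therefore also given from a model with a term for the pair and from the 6 other libraries. The pair was picked from these same values, and no label marks it. Both fits thus lower the spread through that choice, so their p-values are too small and are given as a description. The 10 mesothelial markers, among them keratins, vimentin, MSLN and WT1, all passed the filter, with a summed level of 4972 to 6148 FPKM in DPT and 4331 to 5937 FPKM in DMSO (FPKM is scaled to gene length). Most of that sum was VIM, with a mean of 3943 FPKM in DPT and 2779 FPKM in DMSO, while the keratins KRT8 (707 FPKM in DPT, 989 FPKM in DMSO) and KRT18 (535 FPKM in DPT, 816.5 FPKM in DMSO) went the other way. Of leukocyte markers 1 of 9 passed the filter, their sum was 4.62 to 13.1 FPKM in DPT and 5.70 to 18.3 FPKM in DMSO, and MS4A1 had no counts. Endothelial markers summed to 0.706 to 2.03 FPKM in DPT and 0.268 to 1.36 FPKM in DMSO. Fibroblast markers summed to 23.8 to 41.1 FPKM in DPT and 66.0 to 80.3 FPKM in DMSO, with DCN and LUM at 0 counts in all libraries. Most of that sum was the collagen COL1A2, and its part in the results was not tested. In bulk RNA, fewer cells with a message and less of it per cell cannot be told apart.

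The promoters of 4 of these genes are shown because the kappa B consensus, the sequence bound by NF-kB, stands in them. TNFAIP3, BIRC3 and TICAM1 were each called higher in DPT, and TNIP1 was not called with all 8 libraries. TRAF3, which also holds a match and was not called, is not printed. Each stretch is the 250 bases before a RefSeq transcript start (build GRCh38.p14), 5′ to 3′ on the gene's strand, with matches to the consensus in capitals.
TNFAIP3 (chr6:137867009-137867258, plus strand): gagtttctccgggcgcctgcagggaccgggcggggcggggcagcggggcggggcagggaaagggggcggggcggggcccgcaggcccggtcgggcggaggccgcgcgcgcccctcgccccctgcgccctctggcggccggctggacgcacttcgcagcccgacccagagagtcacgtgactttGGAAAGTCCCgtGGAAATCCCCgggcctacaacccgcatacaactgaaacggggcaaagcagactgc
BIRC3 (chr11:102317234-102317483, plus strand): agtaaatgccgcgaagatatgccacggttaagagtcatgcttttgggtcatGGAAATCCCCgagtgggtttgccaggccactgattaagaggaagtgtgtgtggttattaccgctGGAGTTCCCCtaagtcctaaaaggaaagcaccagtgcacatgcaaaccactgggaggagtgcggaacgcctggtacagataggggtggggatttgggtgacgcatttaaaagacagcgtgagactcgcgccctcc
TICAM1 (chr19:4831713-4831962, minus strand): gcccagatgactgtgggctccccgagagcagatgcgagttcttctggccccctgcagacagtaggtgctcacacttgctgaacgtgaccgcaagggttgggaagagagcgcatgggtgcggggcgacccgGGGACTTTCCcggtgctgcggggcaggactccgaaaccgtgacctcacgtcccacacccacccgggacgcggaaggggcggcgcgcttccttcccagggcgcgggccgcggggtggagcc
TNIP1 (chr5:151081035-151081284, minus strand): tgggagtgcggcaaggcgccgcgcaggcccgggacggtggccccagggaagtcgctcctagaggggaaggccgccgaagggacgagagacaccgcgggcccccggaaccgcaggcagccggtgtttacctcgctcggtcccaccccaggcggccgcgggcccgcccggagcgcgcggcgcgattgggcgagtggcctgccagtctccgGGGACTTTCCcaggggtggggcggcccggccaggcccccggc
TNFAIP3 and BIRC3 held 2 matches each, those of TNFAIP3 within 67 bases of the start and those of BIRC3 at 199 and 135 bases before it. TICAM1 and TNIP1 held 1 each, GGGACTTTCC in both. Read on the opposite strand it is GGAAAGTCCC, a match of TNFAIP3. The match GGAAATCCCC is shared by TNFAIP3 and BIRC3. GENCODE 29 begins the genes TNFAIP3 and BIRC3 inside these windows, at 137867188 and 102317450, and TNIP1 has transcripts that begin further upstream. By that annotation the matches of TNFAIP3 lie inside the gene and those of BIRC3 lie before it. Both strands were searched for GGGRNNYYCC (R is A or G, Y is C or T, N is any base), and no match overlapped another. The matches of TNFAIP3 and BIRC3 fit it on the opposite strand.

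In all, 5 of the 10 genes had a match in any of their 16 RefSeq promoter windows, the fifth being TRAF3. Of all 27305 genes with such a window, 11.8% had a match, and of all 35116 windows 9.96%. A match thus stood by 3 of the 5 genes that rose and by 2 of the 4 that were not called. The windows of TRAF1 and BIRC2, which rose, of TNFAIP2, which fell, and of XIAP and TRAF2 held none, which says only that these letters are not in these windows. The AP-1 motif (TGACTCA or TGAGTCA, both strands) was in no window of the 10 genes and in 5.19% of all genes. A match is a description of the sequence and was not tested for binding.

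**Figure D1:**
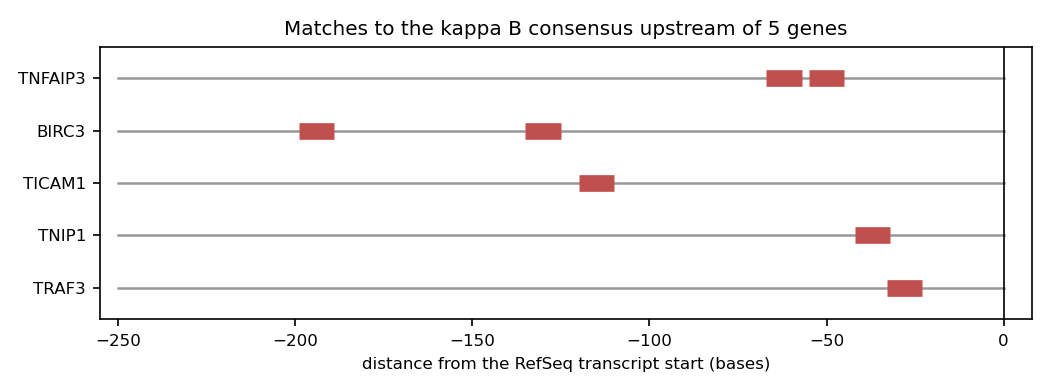
Position of matches to the kappa B consensus (red bars) in the 250 bases before the RefSeq start of the 5 genes that hold one; the horizontal axis is the distance from the start in bases. TNFAIP3 and BIRC3 have 2 matches each, and TICAM1, TNIP1 and TRAF3 have 1 each.

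TNFAIP3 encodes A20, which removes and adds ubiquitin chains on RIPK1 and other proteins and so brakes NF-kB signalling and restrains cell death. Its message (ENSG00000118503, chromosome 6, 137867188 to 137883312 of GRCh38) stood at 90.6, 44.6, 111 and 98.3 CPM in DPT replicates 1 to 4, against 34.7, 30.6, 17.9 and 36.1 CPM in DMSO replicates 1 to 4. Each DPT library was above each DMSO library, and the lowest of either group was its library of the pair. The means were 86.1 ± 28.9 CPM in DPT and 29.8 ± 8.27 CPM in DMSO (SD, n = 4 each), with a log2 fold change of 1.53 (SE 0.29, edgeR adjusted p = 0.0113). The call held in all 8 fits that left out 1 library (adjusted p at most 0.0399). Within the pair DPT replicate 2 was 2.49-fold above DMSO replicate 3, and among the other libraries the DPT mean was 2.96-fold above the DMSO mean. A gene on the opposite strand overlaps TNFAIP3 in the GENCODE 29 annotation, and reads of overlapping genes cannot be told apart if strand was not used in counting.

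TNIP1 (ABIN1) binds linear ubiquitin chains and brings A20 to them. It was the most abundant of the 10 messages per length in both groups. It stood at 203, 132, 194 and 180.3 CPM in DPT, against 174, 176, 101 and 176 CPM in DMSO. The 2 libraries of the pair were far below the others, and the groups overlapped through DPT replicate 2. TNIP1 was not called with all 8 libraries (log2 fold change 0.18, SE 0.19, edgeR adjusted p = 0.611). It rose by a small amount with the term for the pair (log2 fold change 0.19, SE 0.05, adjusted p = 0.00892) and in the 6 libraries (0.13, adjusted p = 0.0439), where 192 ± 11.3 CPM in DPT compared with 175 ± 0.872 CPM in DMSO (SD, n = 3 each). In these fits 16.9% and 17.0% of all tested genes were higher in DPT.

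BIRC3 encodes cIAP2, a RING-type ubiquitin ligase of the TNF receptor complex, and BIRC2 its close relative cIAP1. They are neighbours on chromosome 11, BIRC3 at 102317450 to 102339403 and BIRC2 at 102347211 to 102378670 of GRCh38, with 7807 bases between them on the same strand. BIRC3 (ENSG00000023445) stood at 72.1, 46.3, 90.2 and 82.4 CPM in DPT, against 42.7, 37.3, 26.7 and 40.6 CPM in DMSO. The groups did not overlap, but DPT replicate 2 came close to the highest DMSO library. The log2 fold change was 0.98 (SE 0.21, edgeR adjusted p = 0.0171), and the call was lost without DPT replicate 3, DPT replicate 4 or DMSO replicate 2 (0.0525 to 0.0581).

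BIRC2 (ENSG00000110330) stood at 109.9, 157, 128 and 131 CPM in DPT, against 88.5, 85.0, 108 and 90.1 CPM in DMSO. The groups did not overlap, and the highest library of each group was its library of the pair, the reverse of the order seen for BIRC3. The log2 fold change was 0.50 (SE 0.12, edgeR adjusted p = 0.0247). This call was lost without DPT replicates 3 or 4 or any of DMSO replicates 1, 2 and 4 (0.0627 to 0.0808), and in the 6 libraries the log2 fold change was 0.48 (adjusted p = 9.2e-06).

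Since BIRC3 rose by more than BIRC2, the balance of the 2 ligase messages was different in the libraries. The ratio of BIRC2 to BIRC3 in FPKM was 1.45, 3.42, 1.61 and 1.66 in DPT, against 2.68, 3.49, 4.89 and 3.50 in DMSO. It was lowest in DPT replicates 1, 3 and 4, and DPT replicate 2 lay within the DMSO range. The FPKM scale widens this contrast. For BIRC3, log2 of FPKM plus 0.1 differed by 1.32 against 0.98 in counts, and for BIRC2 by 0.43 against 0.50. The ratio was chosen after the values were seen and was not tested. The deposited expected counts of both genes were whole numbers in all 8 libraries, and whether they share reads was not tested.

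XIAP binds and blocks caspases directly and is also a ubiquitin ligase. It stood at 77.6, 59.4, 82.2 and 84.5 CPM in DPT, against 71.0, 68.3, 60.8 and 75.4 CPM in DMSO, and the groups overlapped through DPT replicate 2. XIAP was not called with all 8 libraries (log2 fold change 0.14, SE 0.11, edgeR adjusted p = 0.484) or with the term for the pair (0.13, adjusted p = 0.0822). It was called in the 6 libraries (0.19, SE 0.06, adjusted p = 0.0173), where DPT replicates 1, 3 and 4 were all above DMSO replicates 1, 2 and 4. Within the pair DPT replicate 2 was 0.977 of DMSO replicate 3. Its expected counts had a fractional part in 2 libraries, and genes on the opposite strand overlap it, so that its values may include reads of other genes.

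**Figure D2:**
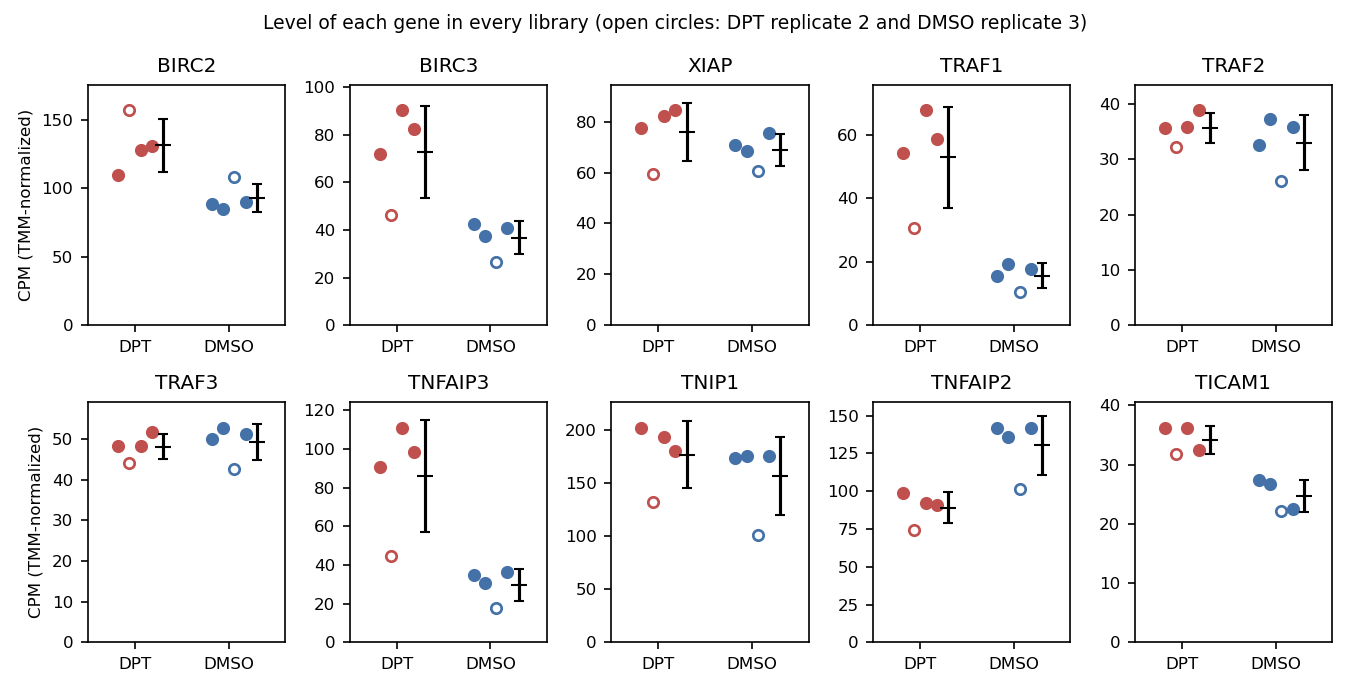
Level of each of the 10 genes in TMM-normalized CPM (vertical axes, from 0) in every library of DPT (red) and DMSO (blue); open circles are DPT replicate 2 and DMSO replicate 3, and black bars are the mean and SD of 4 libraries. TRAF1, TNFAIP3 and BIRC3 lie higher in DPT with the open circles lowest in each group, BIRC2 has the open circles highest, and TNFAIP2 lies lower in DPT.

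TRAF1 lacks the RING domain of the other TRAF proteins and forms shared trimers with TRAF2, which bind the cIAPs. Its message (ENSG00000056558, chromosome 9, 120902393 to 120929173) stood at 54.3, 30.7, 67.7 and 58.8 CPM in DPT, against 15.4, 19.2, 10.4 and 17.6 CPM in DMSO. The lowest DPT library was above the highest DMSO library. The means were 52.9 ± 15.8 CPM in DPT and 15.6 ± 3.83 CPM in DMSO (SD, n = 4 each). The log2 fold change was 1.76 (SE 0.25, edgeR adjusted p = 0.00368), and the call held in all 8 fits that left out 1 library (adjusted p at most 0.018). With TNFAIP3 and BIRC3 it was low in the pair, where DPT replicate 2 stood at 0.509 of the mean of the other DPT libraries and DMSO replicate 3 at 0.598 of the mean of the other DMSO libraries. Per length TRAF1 was the least abundant of the 10 in DMSO, at 3.57 ± 0.849 FPKM, and stood at 12.4 ± 3.75 FPKM in DPT.

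TRAF2 is the adaptor that links TRADD to the cIAPs. It stood at 35.8, 32.2, 35.9 and 38.9 CPM in DPT, against 32.6, 37.4, 26.2 and 35.8 CPM in DMSO. The groups overlapped (log2 fold change 0.11, SE 0.11, edgeR adjusted p = 0.577), and it was not called with the term for the pair (adjusted p = 0.213) or in the 6 libraries (adjusted p = 0.569).

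TRAF3 holds the NF-kB inducing kinase NIK in a complex with TRAF2 and the cIAPs, which marks NIK for destruction. It stood at 48.3, 44.2, 48.4 and 51.7 CPM in DPT, against 50.1, 52.9, 42.7 and 51.3 CPM in DMSO. The groups overlapped and the log2 fold change of -0.03 (SE 0.08, edgeR adjusted p = 0.853) was under its error, with positive values without DPT replicate 2 (0.007) and without DMSO replicate 2 (0.0003). The authors' FPKM pointed the other way: 8.91 ± 0.832 FPKM in DPT and 7.39 ± 1.06 FPKM in DMSO (SD, n = 4 each; log2 of FPKM plus 0.1 differed by 0.27, limma adjusted p = 0.218).

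The gene length that counts and FPKM together imply differed between libraries for TRAF3. It was 5.62, 5.05, 6.12 and 5.22 kb in DPT, against 6.20, 6.22, 7.16 and 6.87 kb in DMSO, so all DPT libraries were shorter. For BIRC3 the implied lengths were 3.36, 3.31, 3.50 and 3.83 kb in DPT, against 4.46, 4.02, 4.22 and 4.92 kb in DMSO, again without overlap. These 2 of the 10 genes were shorter in every DPT library and none was longer, where 2.85% of 10509 genes were shorter and 3.59% longer in that sense. TICAM1 had 2.69 kb in all libraries, and TRAF1 4.31 to 4.34 kb. The length was looked at after the values were seen. The sources used here do not say how the authors set a gene's length in each library, and no test of single transcripts was possible.

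TICAM1 encodes TRIF, the adaptor of the Toll-like receptors TLR3 and TLR4, which can also pass a signal to RIPK1 and RIPK3. It stood at 36.2, 31.8, 36.2 and 32.5 CPM in DPT, against 27.4, 26.7, 22.1 and 22.5 CPM in DMSO. The groups did not overlap, and of the 10 genes it was the one whose library of the pair stood least apart in DPT, at 0.909 of the mean of the other DPT libraries. The log2 fold change was 0.47 (SE 0.09, edgeR adjusted p = 0.0143), and the call was lost without DPT replicate 3 (0.0512) or DMSO replicate 4 (0.0528). In the 6 libraries it was 0.45 (adjusted p = 0.000676).

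TNFAIP2 is named as a message that TNF raises, and its protein takes part in the growth of thin membrane bridges between cells. It stood at 98.7, 74.6, 92.4 and 90.9 CPM in DPT, against 142, 136, 101 and 142 CPM in DMSO. It was the one called gene of the 10 that was lower in DPT, and the groups did not overlap, with DMSO replicate 3 just above the highest DPT library. The log2 fold change of -0.55 (SE 0.12, edgeR adjusted p = 0.0216) kept its sign in the 6 libraries (-0.57, adjusted p = 8.93e-08). The call was lost without DPT replicates 3 or 4 or any of DMSO replicates 1, 2 and 4 (0.0583 to 0.0711).

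**Figure D3:**
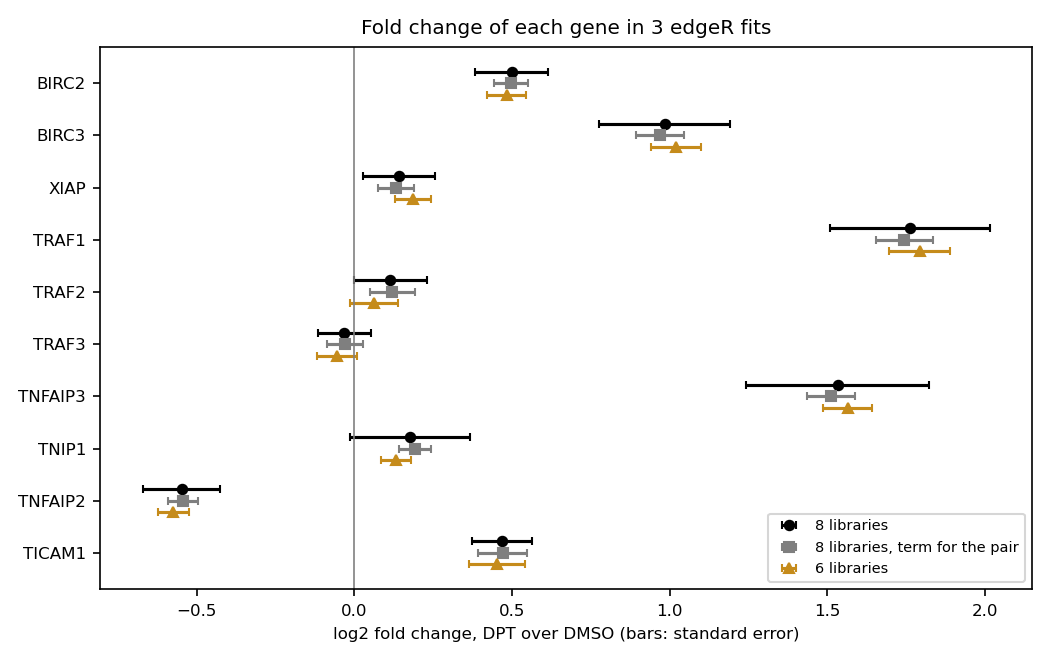
Log2 fold change (DPT over DMSO, horizontal axis) of each gene with its standard error, from all 8 libraries, from 8 libraries with a term for the pair, and from the 6 other libraries. The estimates move little between fits while the standard errors are smaller in the last 2, where TNFAIP3 has an SE of 0.08 against 0.29.

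The 6 called genes kept their direction and their call with the term for the pair and in the 6 libraries. These fits are no separate support, because the pair was picked from these same data. The common coefficient of variation that edgeR estimated between libraries was 14.9% with all 8 libraries. It was 6.3% with the term and 5.54% in the 6 libraries. With the term 6 genes rose and 1 fell, and in the 6 libraries 7 rose and 1 fell, where the background was 16.9% and 17.0% of tested genes for rises and 17.0% and 17.1% for falls, 34.0% and 34.1% in all. The genes added were TNIP1 in both fits and XIAP in the second. Of the 10 genes, 8 had the same direction within the pair as among the other libraries, the exceptions being XIAP and TRAF3. Whether the effect of DPT differed between the pair and the others was not tested. DMSO replicate 3 was below the mean of the other DMSO libraries in 9 of the 10 genes and DPT replicate 2 below the mean of the other DPT libraries in the same number, with BIRC2 the exception in each group (1.23-fold and 1.28-fold above).

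On the FPKM scale, which allows genes to be compared, the order in DPT was TNIP1 (77.8), BIRC2 (39.6), TNFAIP2 (32.6), TNFAIP3 (21.6), BIRC3 (21.0), TRAF2 (16.9), XIAP (15.6), TICAM1 (12.9), TRAF1 (12.4) and TRAF3 (8.91). In DMSO it was TNIP1 (66.0), TNFAIP2 (45.5), BIRC2 (29.1), TRAF2 (15.3), XIAP (12.2), TICAM1 (9.06), BIRC3 (8.23), TRAF3 (7.39), TNFAIP3 (7.31) and TRAF1 (3.57). In DPT only TNIP1 was clear of the next gene, and each other pair of neighbours had library ranges that overlapped. In DMSO the ranges of neighbours did not overlap between TNFAIP2 and BIRC2, BIRC2 and TRAF2, XIAP and TICAM1, and TNFAIP3 and TRAF1. TNFAIP3 was the fourth in DPT and the ninth in DMSO.

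Among 10320 genes of at least 5 CPM, the profiles nearest to TNFAIP3 over the 8 libraries were those of PPTC7 (Pearson r = 0.997), ITPRIP (r = 0.996) and BIRC3 (r = 0.996). Nearest to BIRC3 were PPTC7 (r = 0.998), RNF6 (r = 0.997) and TNFAIP3, and nearest to TRAF1 were PPP1R15A (r = 0.993), B3GNT5 (r = 0.992) and ZNF697 (r = 0.992). These values describe likeness only: the 8 points share treatment and the pair and fall into separate sets, so no p is given.

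Other genes of the pathway were taken as 9 lists and are described by counts and medians. Of their 92 tested genes 6 rose and 1 fell, with a background of 5.68% and 5.29% as above. Rows that share a symbol were counted separately. Of 5 tested partners of A20 and relatives of ABIN1, TNIP2 (ABIN2), which binds A20, rose and none fell (median log2 fold change 0.09). TNIP2 averaged 64.9 ± 4.47 CPM in DPT and 47.6 ± 4.12 CPM in DMSO (SD, n = 4 each; log2 fold change 0.45, SE 0.08, edgeR adjusted p = 0.00933), and the call held without any single library. Of 12 tested genes of linear ubiquitin assembly and deubiquitinases, SPATA2 rose and none fell (median 0.03). SPATA2, which brings the deubiquitinase CYLD to the receptor complex, averaged 21.9 ± 2.76 CPM in DPT and 15.8 ± 1.37 CPM in DMSO (log2 fold change 0.47, SE 0.11, edgeR adjusted p = 0.0267). CYLD itself averaged 209 ± 26.3 CPM in DPT and 173 ± 13.5 CPM in DMSO and was not called with all 8 libraries (adjusted p = 0.112), while it rose in the 6 (log2 fold change 0.30, adjusted p = 0.00017). The call of SPATA2 was lost without DPT replicates 1, 3 or 4 or DMSO replicates 2 or 4 (up to 0.0842).

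Of 8 tested genes of the TNF receptor 1 complex and death branch, TNFRSF1A fell and none rose (median 0.03). TNFRSF1A, the receptor TNFR1, averaged 179.6 ± 12.4 CPM in DPT and 245 ± 23.3 CPM in DMSO (log2 fold change -0.45, SE 0.08, edgeR adjusted p = 0.011, called without any single library), and in the 6 libraries the log2 fold change was -0.53. RIPK1 averaged 56.5 ± 1.70 CPM in DPT and 56.5 ± 0.991 CPM in DMSO (adjusted p = 0.997), and CASP8 averaged 44.3 ± 5.33 CPM in DPT and 46.8 ± 4.17 CPM in DMSO (adjusted p = 0.678). MLKL, the pore-forming effector of necroptosis, averaged 33.1 ± 6.46 CPM in DPT and 21.2 ± 5.27 CPM in DMSO and was not called with all 8 libraries (log2 fold change 0.65, adjusted p = 0.0712), and it rose in the 6 (0.62, adjusted p = 2.55e-05). RIPK3 had 0 counts in every library, which allows up to 0.179 to 0.184 CPM in DPT and 0.175 to 0.203 CPM in DMSO (3 counts, counting error only). TNF had 6, 1, 3 and 5 counts in DPT and 0 counts in each DMSO library, below the filter on low counts. With no filter, over 17052 genes, it was not called (edgeR adjusted p = 0.065).

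Of 10 tested kinases of the TAK1, IKK and NIK steps, CHUK (IKK alpha) rose and none fell (median -0.03). CHUK averaged 69.9 ± 4.47 CPM in DPT and 58.4 ± 2.80 CPM in DMSO (log2 fold change 0.26, SE 0.07, edgeR adjusted p = 0.039). That call was lost without DPT replicates 3 or 4 or DMSO replicates 1, 2 or 4 (up to 0.122). MAP3K14, which encodes NIK, averaged 44.9 ± 3.51 CPM in DPT and 49.6 ± 4.37 CPM in DMSO (adjusted p = 0.324).

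None of 10 other TRAF genes and TRAF adaptors (median 0.05), 6 other IAP genes and IAP antagonists (median -0.09) or 7 genes of the TICAM1 branch (median 0.02) was called by edgeR, DESeq2 or limma-voom with all 8 libraries. With no adjustment, 1 gene of the first of these lists was higher and 0 were lower in edgeR at p under 0.05. In the other 2 lists there were 0 in either direction. The share of all tested genes at that unadjusted threshold was not counted, so these numbers are a description. With the term for the pair 1 gene of the first list rose and 2 genes of the second fell, where 16.9% of all tested genes rose and 17.0% fell. The 17 tested interferon-stimulated genes were not called either (median -0.16, 0 in each direction at an unadjusted p under 0.05 and with DESeq2 and limma-voom), while 10 fell with the term for the pair, where 17.0% of all tested genes fell.

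The last list held NF-kB feedback and target genes. Where these lists had no call in a direction, edgeR at an unadjusted p under 0.05 found 1 higher gene of the receptor list and 1 lower gene of the NF-kB list, and 0 lower genes in the A20, ubiquitin and kinase lists. DESeq2 called 1 higher gene of the receptor list, and limma-voom none. The share of all tested genes at the unadjusted threshold was not counted here either. Of 17 tested NF-kB genes 3 rose and none fell (median log2 fold change 0.29), with a background of 5.68% and 5.29%. With the term for the pair 11 of the 17 rose and 1 fell, where 16.9% of all tested genes rose and 17.0% fell. In the 6 libraries, where CCL20, named after its values were seen, also passed the filter, 13 of 18 rose and none fell, where 17.0% of all tested genes rose and 17.1% fell. The mean of the 17 genes was itself low in the pair, which was picked from these same data, so both counts are a description. NFKBIE, an inhibitor of NF-kB, averaged 47.0 ± 4.98 CPM in DPT and 31.4 ± 4.27 CPM in DMSO (SD, n = 4 each; log2 fold change 0.58, SE 0.12, edgeR adjusted p = 0.0134), and was called without any single library. NFKB2, the precursor of the subunit p52, averaged 99.6 ± 11.9 CPM in DPT and 73.9 ± 6.34 CPM in DMSO (log2 fold change 0.43, SE 0.10, edgeR adjusted p = 0.0226), and its call was lost without DPT replicates 1, 3 or 4 or DMSO replicates 2 or 4 (up to 0.0722). The third was the chemokine CXCL3, named after its values were seen, at 10.4 ± 4.51 CPM in DPT and 2.99 ± 1.51 CPM in DMSO (log2 fold change 1.81, edgeR adjusted p = 0.0359). Its call was lost without any of DPT replicates 1, 3 and 4 and DMSO replicates 1, 2 and 4 (up to 0.107).

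**Figure D4:**
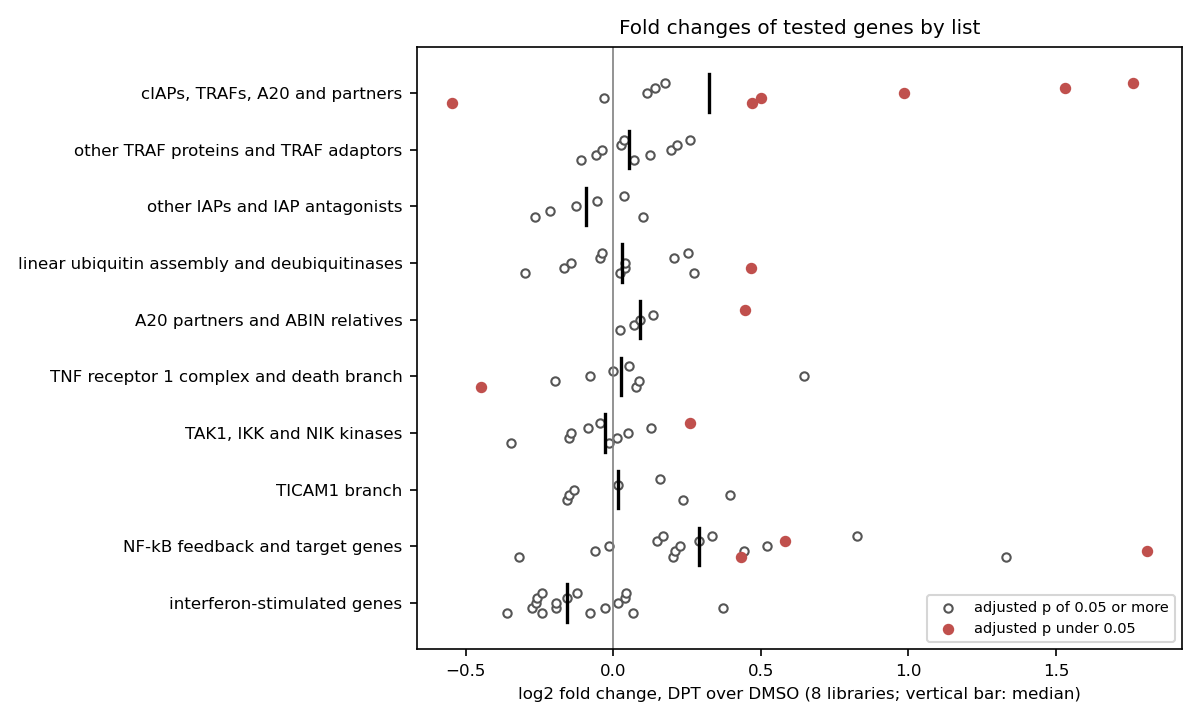
Log2 fold change (DPT over DMSO, 8 libraries, horizontal axis) of each tested gene, by list; filled red points have an adjusted p under 0.05, open points do not, and black bars are list medians. The 10 genes of the top row have a median of 0.32 and 6 filled points, and the NF-kB feedback and target genes a median of 0.29 and 3.

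The deposited annotation places 6 of the 10 genes in the KEGG pathway of TNF signalling, 8 in that of NF-kB signalling, 6 in that of necroptosis and 5 in that of apoptosis. Of the 97 tested genes with the TNF term 17 rose and 6 fell, of 81 with the NF-kB term 12 rose and 1 fell, of 119 with the necroptosis term 9 rose and 2 fell, and of 128 with the apoptosis term 13 rose and 5 fell. Of 588 with the ontology term of protein ubiquitination, which 6 of the 10 carry, 29 rose and 16 fell. These counts include the 10 genes, and the background was 5.68% higher and 5.29% lower.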

How the data were processed

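Polyadenylated RNA was sequenced from 4 DPT and 4 DMSO libraries. The design text calls them biological replicates, and no label gives a batch or pairing, so p-values measure only the spread between these libraries. The authors deposited 1 table with an expected count and an FPKM value per gene and library, per the file headers; among the expected counts 10.8% had a fractional part. The build was hg38 and the tools named were RSEM, HISAT2, DESeq2, StringTie 1.3.1 and fastp 0.18.0, per the submitters' processing notes. The sources used here do not give their roles, the other versions or whether counting used strand. Near-identical and overlapping genes may therefore share reads.

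Expected counts were rounded. In R 4.3.3, edgeR 4.0.16 (filterByExpr at its defaults, minimum count 10, minimum total 15, TMM, quasi-likelihood test, Benjamini-Hochberg adjustment over 12648 genes) compared DPT with DMSO, and limma 3.58.1 and DESeq2 1.42.0 were alternatives, as were other normalizations and filters, a replicate block, a term for DPT replicate 2 and DMSO replicate 3, the 6 other libraries, each library left out and log2 of FPKM plus 0.1 or 1. CPM values use TMM library sizes, and implied length is CPM without TMM over FPKM. The procedure was checked on simulated counts with the same dispersion for every gene and no unlike pair of libraries. That check therefore does not cover the effect of the pair. Totals of 14964432 to 17205391 counts make counting error small beside the spread of all 8 libraries (common coefficient of variation 14.9%), except for the lowest genes. In the 6 libraries that spread was 5.54%, and the same cannot be said there of genes such as TRAF1 and TICAM1. No 2 libraries were duplicates. Positions come from GENCODE 29 (GRCh38) and promoters from RefSeq (GRCh38.p14). The genes and lists were chosen with earlier results of these data known. Named were all 10 genes, up to 2 higher and 2 lower called genes per list by adjusted p, 7 fixed pathway genes (TNF, RIPK1, RIPK3, MLKL, CASP8, MAP3K14 and CYLD), and the 3 genes of at least 5 CPM with the highest Pearson r of log2 CPM to TNFAIP3, BIRC3 and TRAF1.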

Additional observations from a re-analysis of the deposited data

Results flagged for a closer look

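DMSO replicate 3 was far from the other DMSO libraries for 2 of the 10 genes. TNIP1 stood at 101.4 CPM there, against 174 to 176 CPM in the other DMSO libraries, a gap of 0.979 of the group's range, above Dixon's 95% limit for 4 values. TNFAIP2 stood at 101.5 CPM there, against 136 to 142 CPM, a gap of 0.843 of the range. In all 20 groups of 4 values were examined, and chance marks about 1 in 20. Both marks were in DMSO replicate 3, a library of the pair, and none was in DPT replicate 2.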

How the results depend on the processing

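RLE and upper-quartile normalization, DESeq2, limma-voom, no filter and a filter on a mean of 1 CPM each left 5 of the 10 genes higher and 1 lower in DPT. Over all genes, 718 were higher and 669 lower in DPT. With the term for the pair these were 2140 and 2156, and in the 6 libraries 2158 and 2169. Leaving out 1 library gave 332 to 1183 higher and 311 to 1108 lower genes, and 2 to 5 higher and 0 to 1 lower of the 10.

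Replicate numbers showed no clear pairing. Deviations of same-numbered libraries correlated at 0.20, -0.31, -0.40 and 0.21, and those of DPT replicate 2 and DMSO replicate 3 at 0.68. The negative values involve a library of the pair. Outside the pair, libraries of different number correlated at 0.13 to 0.24, so these values cannot decide whether the numbers pair the libraries. With a replicate block 171 genes were higher and 174 lower, of the 10 only 1 was higher (TRAF1, edgeR adjusted p = 0.0433) and 0 were lower.

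The small fold change of TRAF3 (-0.03) ranged over -0.098 to 0.0067 when 1 library was left out, and turned to 0.0067 without DPT replicate 2, 0.00032 without DMSO replicate 2, 0.27 on log2(FPKM + 0.1) and 0.25 on log2(FPKM + 1). BIRC2 and TNFAIP2 were not called on the FPKM scales (limma adjusted p 0.0679 to 0.0771). Their groups overlapped in FPKM. BIRC2 stood at 31.6 FPKM in DPT replicate 1 and 31.9 FPKM in DMSO replicate 2. TNFAIP2 stood at 37.9 FPKM in DPT replicate 3 and 37.0 FPKM in DMSO replicate 3. The cause was not tested. Of 190 values of the 10 genes under an alternative, 159 kept direction and side of the threshold, 24 lost the call, 3 gained it and 4 turned. Of the counts of the pathway lists under an alternative, 262 were equal or within 1.5 times and 44 were not. Most list counts were 0 in the main fit, and a 0 that stayed 0 was taken as equal. The 262 thus say little of how steady the lists with calls were. The NF-kB genes higher in DPT, 3 in the main fit, were 0 with the replicate block and 13 in the 6 libraries. Depth limits TNF and RIPK3, which had at most 6 counts in any library.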
